A study of Arabidopsis thaliana with 4 samples.

Results

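SWEET proteins carry sugars down their gradient across plant membranes. The 4 SWEET genes described here are SWEET4 (AT3G28007), SWEET11 (AT3G48740), SWEET13 (AT5G50800) and SWEET17 (AT4G15920). They were found by locus in the array annotation, and each was measured by 1 probe set assigned to that gene alone, among 22810 probe sets on the array. Of 13 other SWEET genes in Arabidopsis, 12 had such a probe set, and SWEET12 was not analysed here. All 4 genes had a mean signal above the filter on dim probe sets and entered a test over 13604 probe sets. The RefSeq gene table of assembly TAIR10.1 places SWEET4 and SWEET11 on chromosome 3, SWEET17 on chromosome 4 and SWEET13 on chromosome 5. In that table SWEET13 lies next to SWEET10, another family member.

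The plants were Arabidopsis thaliana grown on agar plates without special treatment, and total RNA came from whole plants. One group was the ppi2 mutant at 20 days and the other was wild type at 10 days, with 2 single-colour Affymetrix arrays per group. The ppi2 mutant lacks TOC159 through an inserted T-DNA and has pale seedlings; TOC159 is the receptor by which chloroplasts take up proteins of photosynthesis. Genotype and age differ together between the groups and cannot be told apart. The labels call the arrays biological replicates without naming separate cultures, so the p-values speak of array-to-array spread, which may be technical. In whole-plant RNA, fewer cells of a type and less RNA per cell cannot be told apart.

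A leaf cell that fixes carbon must pass sugar on, and SWEET transporters of the plasma membrane release it to the cell wall space, from which the phloem is loaded. Others sit in the tonoplast and let sugar in and out of the vacuole. Members of the same family serve flowers, pollen, nectaries and seeds.

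The arrays did not group by label, which bears on every value below. Over all tested probe sets, ppi2 replicate 1 was most like wild type replicate 2 (r = 0.981, across genes) and ppi2 replicate 2 most like wild type replicate 1 (r = 0.953), while the arrays of a labelled group had r = 0.819 for ppi2 and r = 0.798 for wild type. No probe set was assigned to TOC159 in the annotation used, so the labels could not be checked by the mutated gene. Median signals without controls were 193 and 201 for ppi2 and 213 and 198 for wild type. The 18 probe sets of the hybridisation controls, which are added to every sample, had a median of 840.0 in ppi2 replicate 1 and 1669 in replicate 2, and of 1514 and 1106 in wild type. They were dimmer on ppi2 replicate 1 and wild type replicate 2. Ratios of 3 prime to 5 prime signal were 4.99 and 3.94 in ppi2 and 4.59 and 4.30 in wild type for actin. For GAPDH they were 1.19 and 1.08 in ppi2 and 1.11 and 1.18 in wild type. The GAPDH ratio was higher on ppi2 replicate 1 and wild type replicate 2, while the actin ratio did not split the arrays so. The part of the hybridisation controls and of these ratios in the results was not tested.

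SWEET4, SWEET13 and SWEET17 were low on ppi2 replicate 1 and wild type replicate 2 and high on the other arrays. SWEET11 was high on ppi2 replicate 1 and wild type replicate 2 and low on the others. SWEET4 spanned the widest range of signals of the 4 genes, 4.09-fold from its lowest to its highest array. The ranges were 2.32-fold for SWEET13, 2.01-fold for SWEET11 and 1.98-fold for SWEET17. None of the 4 genes differed between the labelled groups beyond the spread between arrays.

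SWEET4 is a hexose transporter of the plasma membrane, known from roots and leaf veins. Its signal was 77.7 on ppi2 replicate 1 and 238 on ppi2 replicate 2, against 272 on wild type replicate 1 and 66.5 on wild type replicate 2. Each group held 1 low and 1 high array, so the groups overlapped. Within replicate 1, wild type was 3.50 times ppi2, and within replicate 2, ppi2 was 3.58 times wild type. On the log2 scale, after adding a pseudocount of 8.01 to the signal, these differences of ppi2 minus wild type were -1.71 and 1.72. They rest on 1 array per arm and have no error. SWEET4 had a mean signal of 163, not far above the filter at 124, and passed it through its brighter arrays.

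SWEET13 belongs with SWEET11 to the clade of sucrose transporters, and with SWEET14 it also carries gibberellin in anthers. It read 108 and 184 on the ppi2 arrays against 222 and 95.6 on the wild type arrays. The low arrays were again ppi2 replicate 1 and wild type replicate 2, and the groups overlapped. The log2 differences were -0.99 in replicate 1 and 0.89 in replicate 2. As ratios of signals these were 2.06-fold higher in wild type and then 1.93-fold higher in ppi2. Its mean signal of 152 also lay near the filter.

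SWEET17 exports fructose from the vacuole and acts in leaves and roots. Its signals were 437 and 778 in ppi2 and 866 and 546 in wild type. The order of arrays was nearly that of SWEET4 and SWEET13, with ppi2 replicate 1 in place of wild type replicate 2 as the lowest. The difference within replicate 1 was -0.97 on the log2 scale, a 1.98-fold higher signal in wild type. Within replicate 2 it was 0.51, a 1.43-fold higher signal in ppi2.

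SWEET11 releases sucrose from phloem parenchyma cells of the leaf, a step of phloem loading that it shares with SWEET12. It read 3168 and 1578 in ppi2 and 2000 and 3115 in wild type. Here ppi2 replicate 1 and wild type replicate 2 were the bright arrays, which were the low arrays of the other members. The log2 difference was 0.66 within replicate 1, where ppi2 was 1.58 times wild type. Within replicate 2 it was -0.98, where wild type was 1.97 times ppi2. None of the 4 phloem markers considered (SUC2, APL, SEOR1 and PP2-A1) had a probe set assigned in the annotation used, so SWEET11 could not be set beside the tissue it is known from.

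**Figure D1:**
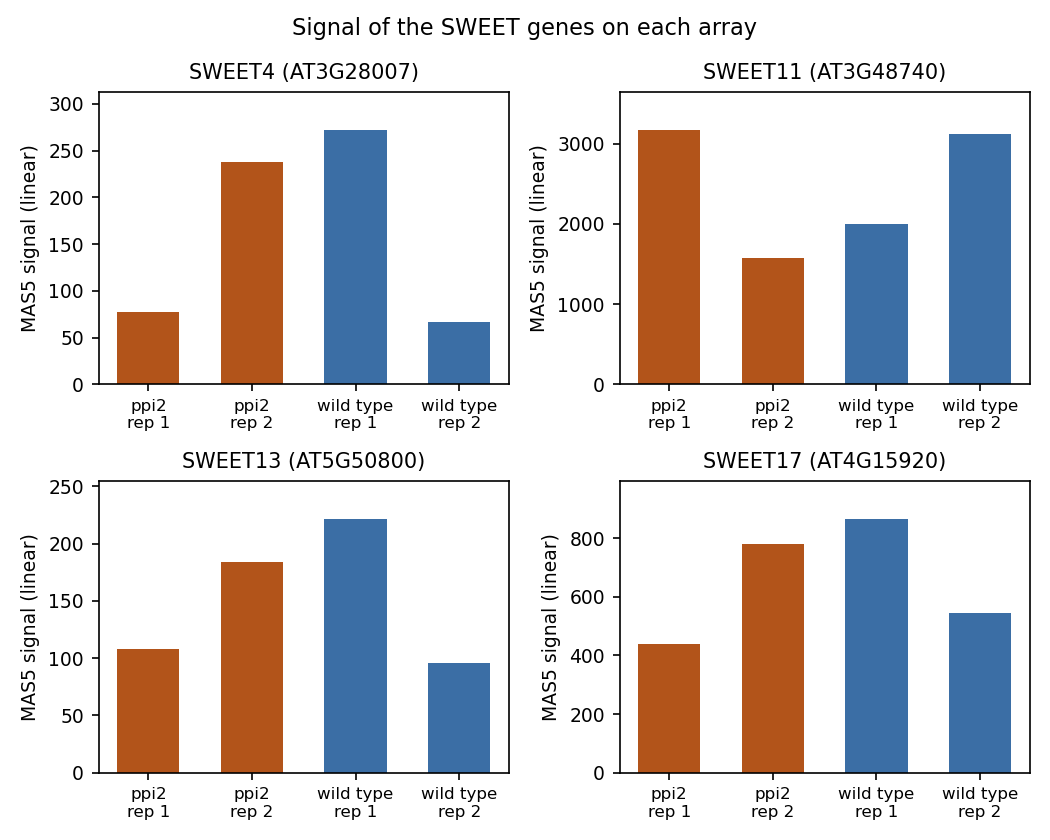
Bars show the deposited MAS5 signal (linear scale, from 0) of each SWEET gene on each of the 4 arrays, with ppi2 in orange and wild type in blue. SWEET4, SWEET13 and SWEET17 are low on ppi2 replicate 1 and wild type replicate 2, and SWEET11 is high on these arrays.

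Averaged by label, the low and high arrays of each gene nearly cancelled. Mean signals were 158 ± 113 (SD, n = 2) in ppi2 and 169 ± 145 in wild type for SWEET4, and 146 ± 54.1 and 159 ± 89.3 for SWEET13. For SWEET17 they were 608 ± 241 and 706 ± 226, and for SWEET11 2373 ± 1124 and 2558 ± 789. In every case the group means lay closer together than the SD within either group. The order of these linear means (wild type above ppi2) is therefore not resolved for any member. For SWEET4 the order turned on the log2 scale, where ppi2 minus wild type was 0.0073.

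In the limma fit over all tested probe sets, 0 of the 4 genes passed an adjusted p of 0.05, where the share called over all probe sets was 0%. At an unadjusted p under 0.05 again 0 of 4 were found, where 0.0588% of all probe sets (8) were. SWEET17 had the largest labelled difference of the 4, at -0.23 (SE 0.43, 95% interval -1.37 to 0.90, adjusted p = 0.99997, lower in 1 of 2 replicate numbers). For SWEET11 the difference was -0.16, with an interval of -1.41 to 1.09. SWEET13 gave -0.047 with an interval of -1.66 to 1.56, and SWEET4 gave 0.0073 with an interval of -2.40 to 2.42. These intervals include differences of more than 2-fold for SWEET4, SWEET11, SWEET13 and, as a lower level in ppi2, SWEET17, so the fit does not show that the groups were alike. An exact two-sided permutation test of 2 arrays against 2 cannot give a p below 0.333.

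The sign of a labelled difference followed which array was left out. Without ppi2 replicate 1 SWEET4 stood at 0.77 and without ppi2 replicate 2 at -0.75. SWEET11 gave -0.66 and 0.34 in these fits, SWEET13 0.32 and -0.41, and SWEET17 0.18 and -0.64. Leaving out wild type replicate 1 gave 0.96 for SWEET4, -0.48 for SWEET11, 0.53 for SWEET13 and 0.095 for SWEET17. Leaving out wild type replicate 2 gave -0.95, 0.16, -0.62 and -0.56 for the same genes. These limma fits take the spread of the single remaining array from the other group, and 0 of the 4 genes passed.

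**Figure D2:**
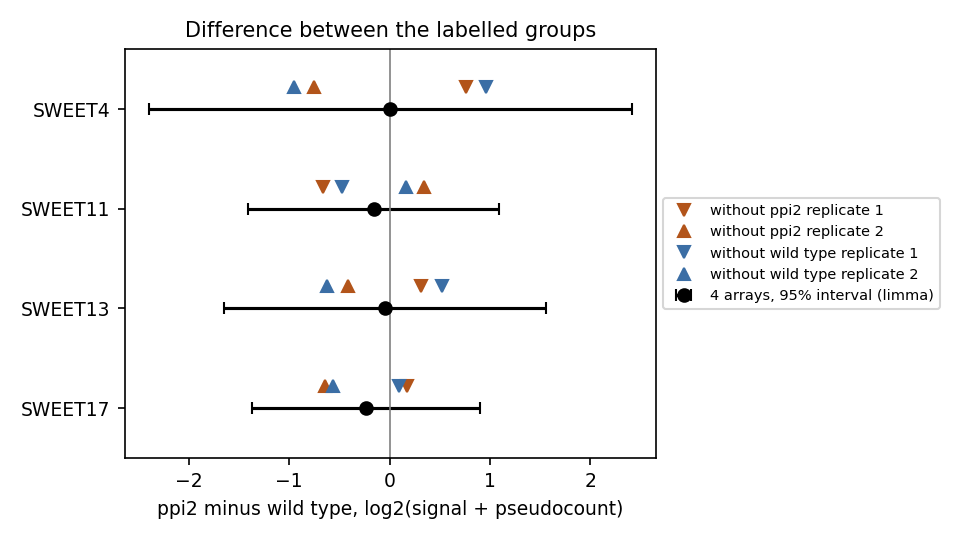
Black points show the log2 difference of ppi2 minus wild type over 4 arrays with its 95% limma interval, and triangles show the same difference without the array named in the key. The triangles fall on both sides of 0 for every gene, and the intervals of all 4 genes include 0.

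The opposite signs of both replicate numbers were common on these arrays. Both ppi2 replicate 1 and wild type replicate 2 lay under the other arrays for 3 of the 4 genes and for 32.7% of all tested probe sets, and over them for SWEET11 and for 36.7% of all probe sets. Of the 4 genes, 3 were lower in ppi2 in replicate 1 and higher in replicate 2, a combination found in 36.8% of all tested probe sets. The remaining gene, SWEET11, was higher and then lower, as were 41.1% of all probe sets. A difference of at least 2-fold on the log2 scale in both replicate numbers was found only for SWEET4 of the 4 genes, lower and then higher, as for 7.14% of all probe sets. The reverse at this size was found for 0 of the 4 genes and 5.76% of all probe sets. In replicate 1 alone, 10.9% of probe sets were at least 2-fold lower in ppi2 and 10.1% higher. In replicate 2, 8.67% were at least 2-fold lower and 9.59% higher. The median absolute difference over all probe sets was 0.49 in replicate 1 and 0.44 in replicate 2. Each of the 4 genes exceeded these medians in both replicate numbers. Exceeding a median is common by definition, and the share of all probe sets above both was not counted.

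The labelled groups did not overlap for 14.3% of all probe sets and for 0 of the 4 genes. When arrays most alike over all probe sets are set side by side, a choice made after their likeness was known, the genes differed less. The signal on ppi2 replicate 2 was 0.874 of that on wild type replicate 1 for SWEET4, 0.789 for SWEET11, 0.831 for SWEET13 and 0.899 for SWEET17. The signal on ppi2 replicate 1 over that on wild type replicate 2 was 1.17 for SWEET4, 1.02 for SWEET11, 1.13 for SWEET13 and 0.801 for SWEET17. These ratios are values of single arrays and have no error.

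**Figure D3:**
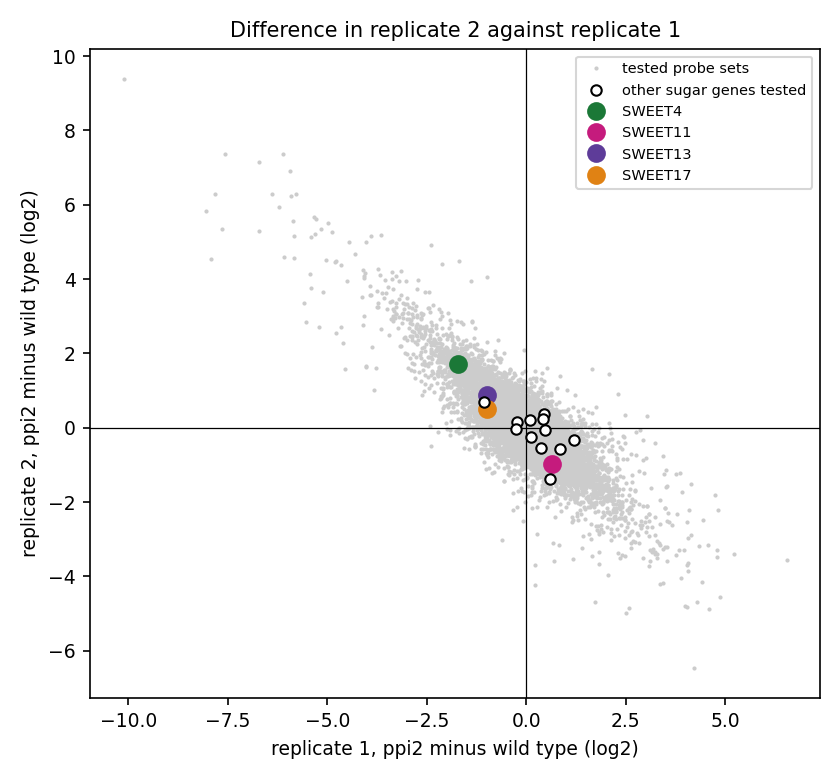
Each point is a probe set, placed by its log2 difference of ppi2 minus wild type in replicate 1 (horizontal) and in replicate 2 (vertical), with all 13604 tested probe sets in grey, 12 other sugar genes as open circles and the 4 SWEET genes in colour. SWEET4, SWEET13 and SWEET17 lie at the upper left of the origin and SWEET11 at the lower right, inside the grey band.

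The shoot and root markers with a probe set were lower on ppi2 replicate 1 and wild type replicate 2, as were 32.7% of all tested probe sets. Of 5 green shoot markers, 2 had a probe set, and the summed signal was 13758 and 49703 in ppi2 and 46552 and 14423 in wild type. Of that sum, RCA, the activase of Rubisco, read 12918 and 20244 in ppi2 against 16455 and 13708.5 in wild type. LHCB4.2, an antenna protein of photosystem II, read 841 and 29459 in ppi2 against 30097 and 714. Of 7 root markers, 2 had a probe set, with summed signals of 6574 and 13304.5 in ppi2 and 14635 and 7466 in wild type. They were PYK10, a glucosidase of root ER bodies, at 6457 and 13175 in ppi2 against 14457 and 7370 in wild type, and the root expansin EXPA18, which read 117 and 130 in ppi2 against 178 and 95.4. Shoot and root markers thus both gave signal on every array labelled whole plant, and both sums were lower on ppi2 replicate 1 and wild type replicate 2, as were SWEET4, SWEET13 and SWEET17. No summed level was at 0. Of 4 flower and pollen markers 1 had a probe set, AT5G45880, which was too dim for the test. It read 27.1 and 10.5 in ppi2 against 13.5 and 3.62 in wild type, so ppi2 replicate 1 was its highest array. Of 4 seed storage markers none had a probe set. The annotation used covered 14016 of 22810 probe sets, so a marker without an assigned probe set may still be on the array. The part of tissue makeup in the SWEET values was not tested.

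Among the 12 other SWEET genes, 10 were too dim for the test, with mean signals from 18.3 to 115, and 2 were tested. SWEET16, a tonoplast sugar transporter and the closest relative of SWEET17, read 408 and 487 in ppi2 against 296 and 374 in wild type. Both ppi2 arrays were brighter than both wild type arrays, unlike any of the 4 genes above. The dim SWEET7 and SWEET8 also had this order, and the labelled groups did not overlap, in either direction, for 14.3% of all tested probe sets. Its labelled difference was 0.41 (SE 0.29, limma adjusted p = 0.99997, unadjusted p = 0.216, higher in 2 of 2 replicate numbers), so it did not pass. SWEET1, a glucose transporter of the plasma membrane, read 343 and 244 against 245 and 252, a labelled difference of 0.21 that did not pass either (limma adjusted p = 0.99997). Whether SWEET16 and SWEET17 differ in their response was not tested.

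The dim family members are given as values only, and their order on single arrays is unsure. SWEET14, the partner of SWEET13 in anthers, read 104 and 15.7 in ppi2 against 3.93 and 92.6 in wild type. Its bright arrays, ppi2 replicate 1 and wild type replicate 2, were the low arrays of SWEET13. SWEET9, which secretes nectar sugar, read 14.3 and 98.5 against 106 and 19.6, the order of arrays seen for SWEET17. SWEET10, the neighbour of SWEET13 on the chromosome, read 19.8 and 27.2 against 80.7 and 14.0. Its highest array, wild type replicate 1, and its lowest, wild type replicate 2, were those of SWEET13. SWEET2, a tonoplast transporter of roots, read 105 and 134 against 137 and 85.2, also with that highest and lowest array.

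SWEET8, which serves pollen wall formation, read 27.9 and 45.3 in ppi2 against 5.49 and 4.41 in wild type. Both wild type values lie under the pseudocount. In the fit without the filter its difference was 1.76 (limma unadjusted p = 0.0364, adjusted p = 1, higher in 2 of 2 replicate numbers). In that fit 283 of 22589 probe sets had an unadjusted p under 0.05 (limma). SWEET7 read 29.3 and 19.9 against 16.5 and 7.37, also above wild type in both replicate numbers. SWEET3 read 58.0 and 53.5 against 6.36 and 63.2, where only wild type replicate 1 stands apart. SWEET5 (named AtVEX1 in the gene table), of the vegetative cell of pollen, read 16.75 and 41.7 against 49.4 and 30.7. SWEET6 read 33.7 and 28.8 against 37.3 and 34.7. SWEET15 (SAG29 in the gene table), known from senescing leaves and seeds, read 52.7 and 70.0 against 63.4 and 95.4. The values of SWEET6 and SWEET15 were lower in ppi2 in both replicate numbers, but in replicate 1 SWEET6 turned to 0.012 after median centring and to 0.42 after quantile normalization, and SWEET15 to 0.39 after quantile normalization.

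**Figure D4:**
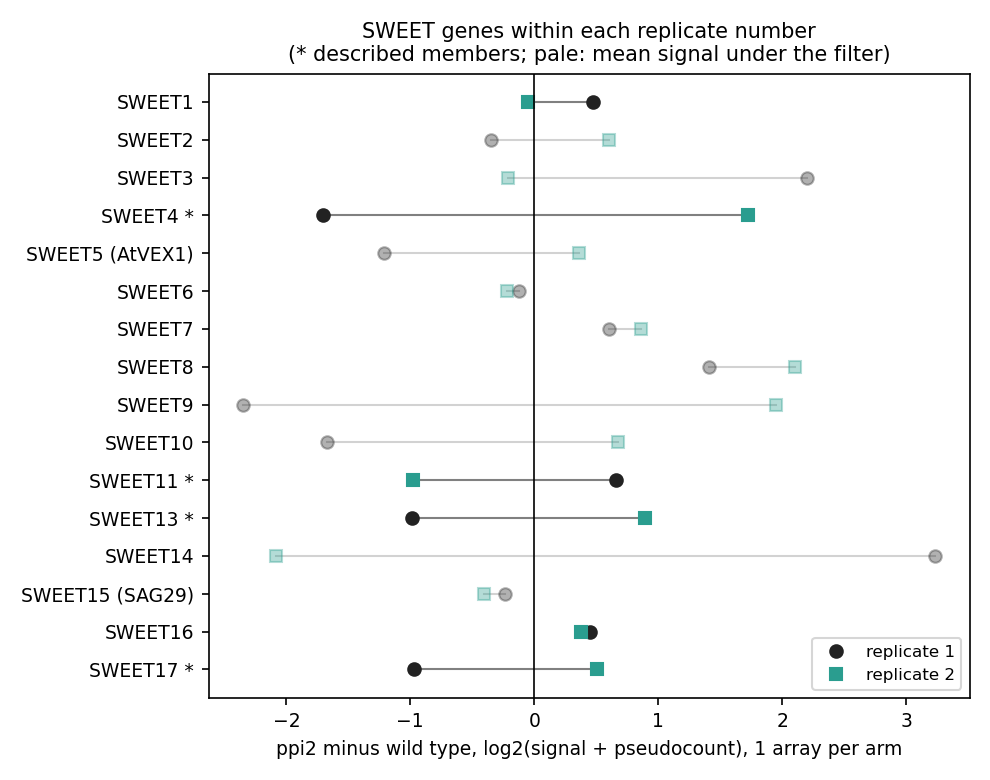
For 16 SWEET genes, circles show the log2 difference of ppi2 minus wild type in replicate 1 and squares that in replicate 2, each from 1 array per arm, with genes under the signal filter drawn pale. The 4 described genes (starred) have a circle and a square on opposite sides of 0, while SWEET16 and the dim SWEET7 and SWEET8 have both on the positive side.

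Sugar genes outside the members were sparse in the annotation. Of 79 genes in 8 lists, including the other SWEET genes, 12 were tested and 0 passed the threshold in either direction, also at an unadjusted p under 0.05 (limma). Their median labelled difference was 0.055, beside -0.0065 over all tested probe sets. In the replicate numbers 2 were lower and then higher in ppi2, 6 were higher and then lower, and 4 kept 1 sign. Over all tested probe sets, 36.8% were lower and then higher and 41.1% were higher and then lower. No probe set was assigned to any of 9 sucrose transporters of the SUC family, 6 sucrose synthases or 6 sugar starvation genes. The phloem loading step that takes up the sucrose released by SWEET11 was therefore not analysed here.

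Of the transporters of tonoplast, plastid and related type, 6 of 12 had a probe set and 5 were tested, 0 of them past the threshold (median labelled difference 0.14). TMT1, which pumps sugar into the vacuole, read 768 and 621 in ppi2 against 331 and 785 in wild type. Only wild type replicate 1 was low. TMT2, of the same function, read 981 and 1039 against 1146 and 929, with little spread between arrays. SFP1 and SFP2 are sugar transporter-like proteins. SFP1 read 1373 and 1085 against 752 and 1626, and SFP2 read 376 and 119 against 247 and 320. Both were high on ppi2 replicate 1 and wild type replicate 2, the bright arrays of SWEET11. AT5G17010 read 410 and 356 against 301.0 and 300.9, a labelled difference of 0.34 (limma adjusted p = 0.99997). Its groups did not overlap, as for 14.3% of all tested probe sets.

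Of 14 hexose transporters of the STP family, 4 had a probe set and 1 was tested, AT5G61520, with 222 and 200.4 in ppi2 against 169 and 296 in wild type. For sucrose synthesis 2 of 9 genes were tested and 0 passed. The sucrose phosphate synthase ATSPS4F read 203 and 258 against 185 and 309, and AT2G35840 read 684 and 799 against 819 and 815. AT2G35840 was lower in ppi2 in both replicate numbers, by 0.26 and 0.029, but turned to 0.049 in replicate 2 after quantile normalization. Of 10 invertases 2 were tested and 0 passed. The cell wall protein cwINV6, which the gene table also calls a fructan exohydrolase, read 139 and 209 against 298 and 127, the order of arrays of SWEET4 and SWEET13. AT1G62660, of the invertase list, read 910 and 1103 against 845 and 953.

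For each of the 4 genes the 3 most similar patterns were sought among 7214 other named genes that entered the test. Likeness was the root mean square difference of log2 values over 4 arrays after subtracting the mean of each gene, so a small value means the same shape and the same amplitude. With so few arrays and so many genes, close matches are common. The nearest to SWEET4 were AT2G18690 (0.037), AT5G27290 (0.051) and AT4G01730 (0.060). AT2G18690 read 373 and 1136 in ppi2 against 1206 and 324 in wild type. Nearest to SWEET11 were AT2G40360 (0.017), AT3G16530 (0.025) and AT5G62440 (0.028), and AT2G40360 read 2831 and 1438 against 1772 and 2759.

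The nearest to SWEET13 were AT1G63420 (0.022), AT4G19450 (0.033) and the tetraspanin TET7 (0.033). TET7 read 586 and 1012 in ppi2 against 1198 and 558 in wild type. For SWEET17 they were AT1G21065 (0.024), AT3G52960 (0.030) and AT4G25870 (0.034), and AT1G21065 read 2325 and 4081 against 4481 and 2772. Among the 4 genes themselves the smallest difference was that of SWEET13 and SWEET17 (0.20), followed by SWEET4 and SWEET13 (0.39) and SWEET4 and SWEET17 (0.52). SWEET11 was at 0.79 from SWEET17, 0.88 from SWEET13 and 1.27 from SWEET4. The nearest genes were closer to each SWEET gene than any other of the 4 was. They were picked as the closest of 7214 genes, so this comparison does not show how alike the members are.

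**Figure D5:**
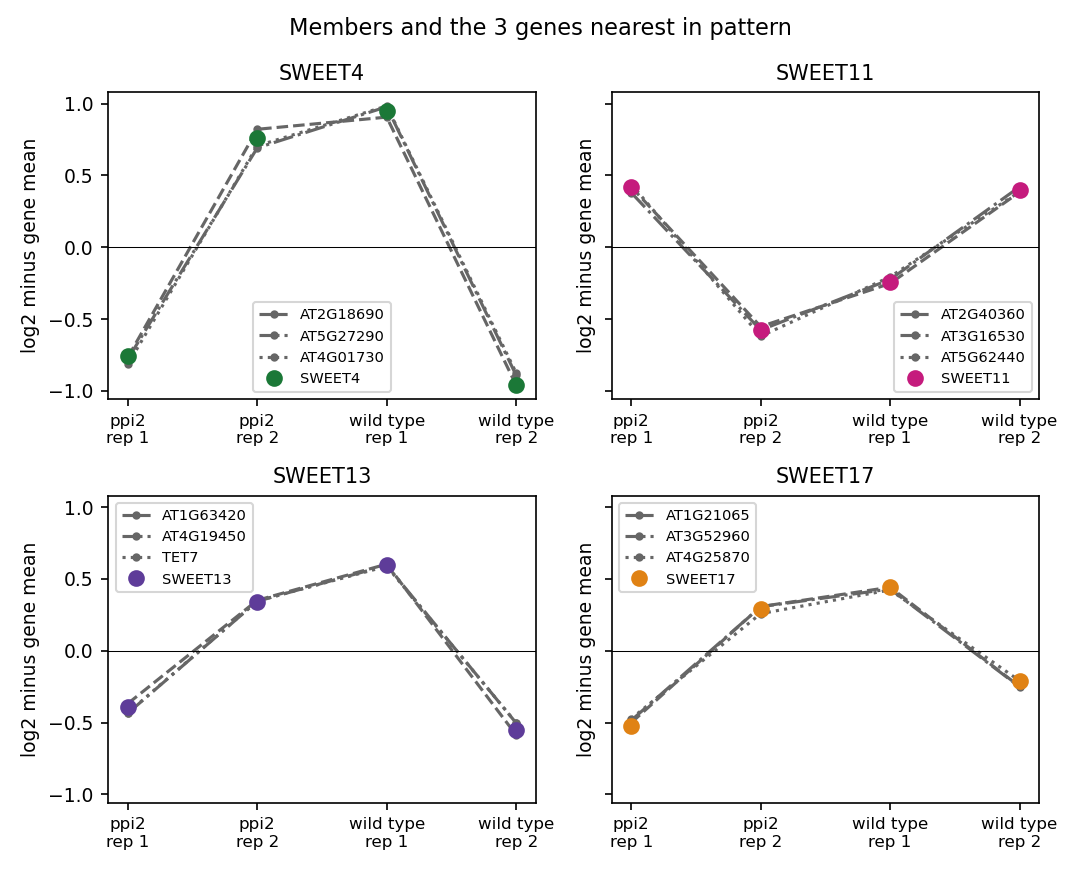
Each panel shows, for the 4 arrays, the log2 signal of a SWEET gene minus its own mean (coloured points) with the 3 genes nearest in pattern (grey, joined only to guide the eye). The grey lines run close to the coloured points, with the largest root mean square difference at 0.060, and SWEET11 is high on the arrays where the others are low.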

How the data were processed

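Signals of 4 arrays were used as deposited by the authors: intensity per probe set on a linear scale, made with MAS5 per the submitters' processing notes, with version and scaling target not given in the sources used here. The 2% trimmed means of the arrays without controls lay within 0.41% of each other, so no further scaling was applied. Of 22810 probe sets, 64 controls were left out. The platform annotation gave 1 gene for 13513 probe sets, of which 13436 matched the RefSeq gene table of TAIR10.1, used for names, chromosomes and gene order only. The brightest probe set stood for a gene (157 others removed), and 8985 dim probe sets, under a mean of 124 (40th percentile), were dropped. A pseudocount of 8.01 (10th percentile of signals) preceded log2, which understates differences of dim probe sets. The comparison by label used limma 3.58.1 (R 4.3.3) (eBayes with trend, two-sided, Benjamini-Hochberg over 13604 probe sets, threshold 0.05, 2 residual degrees of freedom). The fit was also run on simulated tables with independent arrays and the same noise for every probe set. These lack the likeness between arrays seen here, so they do not show how the fit behaves on these data.

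Group and replicate number came from the sample titles. The members and gene lists were chosen with earlier results of these data known. Named genes were the members, all other SWEET genes, up to 6 tested genes of each list (the 5 brightest of longer lists) and the 3 nearest patterns per member. Differences within a replicate number have no test. Alternatives covered scaling, pseudocount, filter, variance model, replicate block, averaged probe sets and leaving out each array. No detection calls were used, and the number of arrays limits the precision. Figures were drawn with matplotlib 3.10.9.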

Additional observations from a re-analysis of the deposited data

How the results depend on the processing

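Under all 13 alternatives listed in the methods, 0 probe sets and 0 of the other sugar genes passed the limma threshold. Same-numbered arrays deviated in opposite directions from their group means (r = -0.818 across probe sets). This r follows from the crossed likeness of the arrays, so it cannot decide whether a replicate number marks a shared batch. With the replicate number as a block 0 probe sets passed. In this balanced layout a block cannot move the labelled differences, only their error. They are 0.0073 for SWEET4, -0.16 for SWEET11, -0.047 for SWEET13 and -0.23 for SWEET17 with or without it. Crossed replicate numbers as a block were added after the likeness of the arrays was seen. In that fit 0 probe sets passed, and 554 of 13604 had an unadjusted p under 0.05 (limma). A block chosen by likeness takes up spread between arrays, so this count is no sign of a difference between the labels. Leaving out each array gave -0.95 to 0.96 for SWEET4, -0.66 to 0.34 for SWEET11, -0.62 to 0.53 for SWEET13 and -0.64 to 0.18 for SWEET17. Of 38 other values of these labelled differences, 36 kept their sign and side of the threshold. The filter, variance model, block and averaging settings leave the difference of a member unchanged by construction. Only the scaling and pseudocount settings could turn a sign, and the reversed values came from these. SWEET13 was 0.010 with median centring and SWEET4 was -0.013 with the pseudocount at the 25th percentile; both lie near 0 in all these fits, and the cause was not tested. With the filter at the 60th percentile SWEET4 and SWEET13 gave no value, since their mean signals fell below it. All 40 values of the differences within a replicate number kept their sign, with SWEET4 between -1.76 and -1.36 in replicate 1 and between 1.34 and 1.78 in replicate 2. Median centring moved the median of all probe sets in replicate 1 by 0.13. Averaging probe sets of a gene left the members as they were, each having 1. Signals near the filter limit what SWEET4 and SWEET13 show on their dim arrays.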
